A study of Mus musculus with 32 samples.

Results

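The axon guidance families were followed in a mouse lung endothelial cell (EC) line as 66 genes, taken by their names alone from the 54429 gene symbols of the count table. The rule itself used no measured value, although the families were picked with earlier results of these data known. They were 7 secreted class 3 semaphorins, 13 membrane-bound semaphorins, 2 neuropilins, 9 plexins, 5 ephrin-A and 3 ephrin-B ligands, 9 EphA and 5 EphB receptors, 3 Slits, 3 Robos, 3 netrins and 4 UNC5 receptors. The line, Veravec, was grown with VEGF and bFGF and given repeated transfections of a control siRNA (si-control) or an siRNA against Dnmt1 (si-dnmt), the enzyme that copies CpG methylation onto newly made DNA. Cells were then left without cytokine or exposed for 16 h to TNFα at 10 ng/mL (TNF), IFNγ at 1000 U/mL (IFN) or both (TNF + IFN, with no separate doses given), and RNA was sequenced in bulk. Each of the 8 groups held 4 libraries, described as biological replicates of this 1 line, so the data hold no animal and no other EC type.

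Axon guidance cues were named for steering growing nerve fibers, and ECs carry many of the same ligands and receptors, through which sprouting vessels are attracted, repelled or kept apart. Class 3 semaphorins are secreted and signal through plexins, mostly with a neuropilin as the binding co-receptor, whereas Sema3e binds Plxnd1 directly. Ephrins are membrane-bound ligands of the Eph receptor tyrosine kinases, with Efnb2 typical of arteries and Ephb4 of veins, while Slits bind Robos and netrins bind DCC, neogenin and the UNC5 receptors.

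Total counts ran from 17362546 to 33500030 per library (median 20859668). Levels are given as CPM, counts scaled to library size with TMM factors. Differences are log2 fold changes ± SE from one edgeR quasi-likelihood fit over all 15254 tested genes, and a Benjamini-Hochberg adjusted p under 0.05 is a call. Dnmt1 lay between 86.5 and 211 CPM in the 16 si-control libraries and between 5.11 and 17.3 CPM in the 16 si-dnmt libraries. All 12 endothelial markers passed the low-count filter (summed 2820 to 8829 CPM). The highest medians were those of Cdh5 (1426 CPM) and Pecam1 (1176 CPM). The lowest were those of Cldn5, at 0.116 to 42.3 CPM (median 3.99), and Vwf, at 0.863 to 57.4 CPM (median 7.30). The 5 leukocyte markers stayed at 3 counts or fewer in every library, as did Epcam, Sftpc and Nkx2-1 among the epithelial markers. Of the 8 neuron markers, Rbfox3, Snap25 and Stmn2 were likewise at 3 counts or fewer, and the summed list of 79.3 to 191 CPM in the IFN and TNF + IFN groups was carried by Tubb3, which alone reached 77.4 to 186 CPM there. The 5 lymphatic endothelial markers summed to 421 to 1277 CPM, carried by Lyve1, Pdpn and Flt4 (medians 377, 133 and 303 CPM). Of the others, Ccl21a was at 0 and Prox1 at 0 to 2.60 CPM (median 0.177). The 6 epithelial markers summed to 3.65 to 22.6 CPM. The 7 fibroblast and pericyte markers summed to 9.70 to 28.8 CPM in si-control and 42.9 to 189 CPM in si-dnmt without cytokine, with Rgs5 and Cspg4 at 3 counts or fewer throughout. That difference was carried by Acta2, which alone measured 6.94 to 23.9 CPM in si-control and 38.6 to 180 CPM in si-dnmt. Dcn overlapped between these groups (0.448 to 1.91 against 0.487 to 3.12 CPM), and Pdgfra, Pdgfrb and Col1a1 stayed at or under 3.14 CPM in every library. The sums of the siRNAs did not overlap with TNF (39.3 to 66.7 against 96.9 to 150 CPM) or IFN (22.1 to 71.6 against 86.1 to 233 CPM) and overlapped with TNF + IFN (53.5 to 88.3 against 83.3 to 143 CPM). The part of these markers in the siRNA and cytokine differences was not tested. In bulk RNA, fewer cells of a type and less RNA per cell cannot be told apart.

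In every group, replicates 1 and 2 stood apart from replicates 3 and 4, and nothing in the labels says what separates these sets. Among the 50 members tested, Efna1, Ephb4, Sema4c, Sema6d and Sema7a were higher in both replicates 1 and 2 than in both replicates 3 and 4 in all 8 groups. Epha4, Nrp1, Ntn4, Plxna1, Plxna3, Sema3c, Sema3e and Sema4b were lower in all 8. These 5 and 8 members (10.0% and 16.0%) compare with 6.08% and 6.25% of all tested genes. Libraries of the same set deviated together, with the same replicate number or not. The count of members called in each comparison below is therefore also given with the replicate number as a block, wherever that moved it by more than 1.5 times. Partner counts are given without the block.

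Few of the families were silent in these cells. Only 5 of the 66 members (7.58%) had 3 counts or fewer in every library, the definition of silent used here, against 31774 of all 54429 symbols (58.4%). Those symbols were not restricted to protein-coding genes such as the members, so the shares do not compare like with like. No member was without a count in all 32 libraries. The silent members were the Eph receptors Epha6, with 1 count over all libraries, and Epha8, with 3, the semaphorin Sema5b, with 2, the netrin Ntn5, with 9, and the netrin receptor Unc5c, with 15. Averaged over the 4 libraries of a group, 3 counts were worth 0.117 to 0.172 CPM, the level that a count of 0 allows by counting error. A further 11 members had more counts but did not pass the filter, namely Efna2, Epha3, Epha5, Epha10, Ephb1, Ephb2, Plxnc1, Robo2, Sema4a, Slit1 and Slit3. Their highest group means lay between 0.0530 CPM for Epha10 and 0.407 CPM for Epha5, an Eph receptor of the nervous system, in si-dnmt + TNF + IFN.

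Detection was uneven between families. All 7 class 3 semaphorins, both neuropilins and all 3 ephrin-B ligands were tested, together with 8 of 9 plexins, 11 of 13 membrane-bound semaphorins and 4 of 5 ephrin-A ligands. By contrast, 4 of 9 EphA receptors and 1 of 3 Slits passed the filter. A group mean of 1 CPM or more was reached by 45 members in some group and by 32 in all 8, and the number per group ran from 34, in both TNF + IFN groups, to 40 in si-control.

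**Figure D1:**
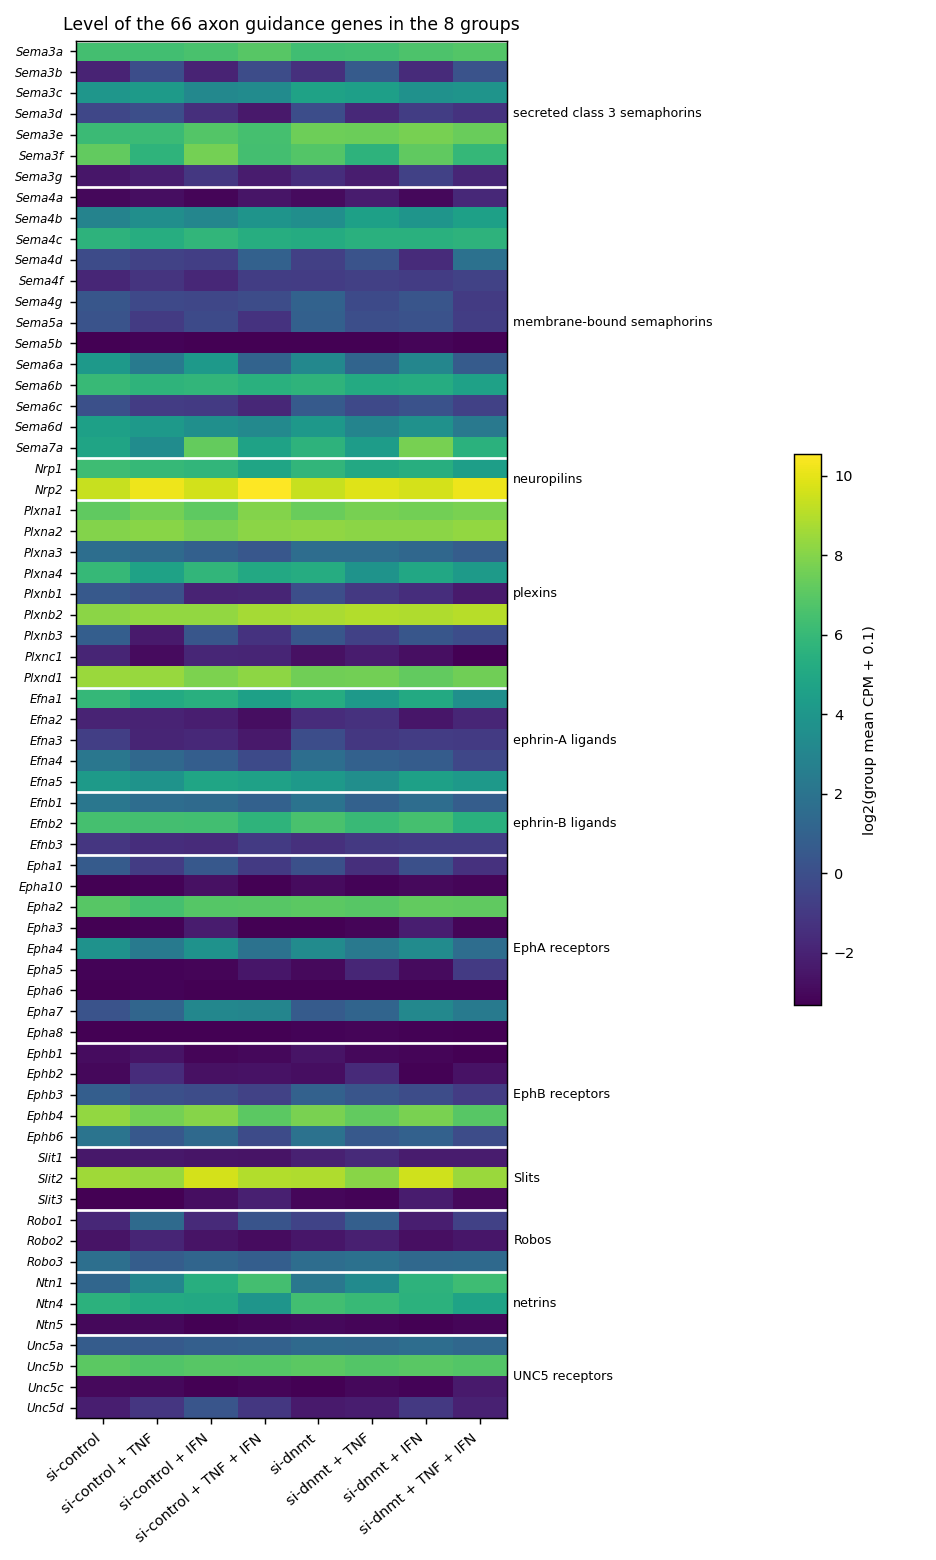
Group mean level of each of the 66 members (rows, by family) in the 8 groups (columns), as log2(mean CPM + 0.1), each mean over 4 libraries. The 5 silent members lie in the darkest rows, and the brightest, on this scale that is not per length, belong to Nrp2, Slit2, Plxnb2, Plxnd1, Plxna2 and Ephb4.

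Levels of different genes can be compared only per length of exon. On that scale, Ephb4, the venous receptor of Efnb2, led the members in si-control at 68.2 CPM per kb, followed by Nrp2, the co-receptor of Sema3f and VEGF-C, at 57.0 and Plxnd1 at 48.5. Plxnb2, a receptor of class 4 semaphorins, stood at 37.0 CPM per kb, the ligand Efna1 at 33.1 and Sema3f at 28.7. Nrp2 was the leading member in 6 of the other 7 groups, from 64.9 CPM per kb in si-control + IFN to 126 in si-control + TNF + IFN. In si-dnmt, the mean of Plxnb2 (56.3 CPM per kb) and that of Nrp2 (55.7) differed by less than the spread between libraries.

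The first question was how the members differed between si-dnmt and si-control in each cytokine state. Without cytokine, 5 members were higher and 2 lower (10.0% and 4.00% of the 50), beside 9.58% and 8.88% of all tested genes. With TNF, 7 members were higher and 10 lower (14.0% and 20.0% of the 50), beside 10.4% and 9.59% of all tested genes. With IFN, 5 members were higher and 3 lower (10.0% and 6.00% of the 50), beside 10.8% and 9.54% of all tested genes. In the fit without the block, the share lower with TNF stood above that of all genes in these states. The other shares lay near or below it, differences that were not tested. With TNF + IFN, 5 members were higher and 7 lower (10.0% and 14.0% of the 50), beside 8.97% and 8.72% of all tested genes. There the lower share stood above that of all genes and the higher share near it, again without a test. With the replicate block, the calls in either direction were 23 of 50 (32.4% of all genes) without cytokine, 21 of 50 (34.5% of all genes) with IFN and 24 of 50 (30.8% of all genes) with TNF + IFN. In that fit the share of members called was thus above that of all genes in each of these states, a difference that was not tested. Sema3e and Plxnb2 were higher in all 4 states (as were 3.91% of all genes) and Plxna4 lower in all 4 (3.59%). The direction of 43 of the 44 siRNA calls was shared by both replicate sets. Both sets were part of the libraries that gave the calls, so a shared direction is no independent check of the calls. The matching share for members not called, or for all genes, is not given here. Of the 44 calls, 17 held when each library in turn was left out.

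**Figure D2:**
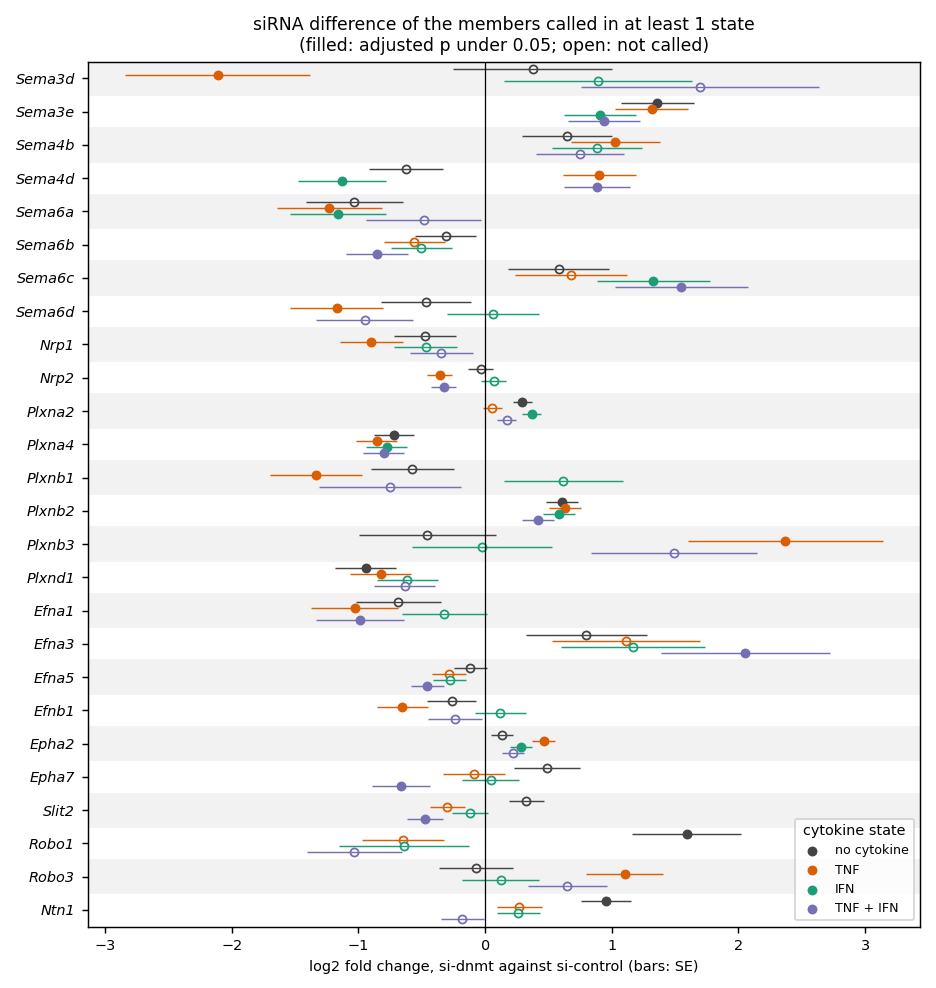
Log2 fold change ± SE of si-dnmt against si-control for the 26 members called in at least 1 of the 4 cytokine states (rows), with filled points for adjusted p under 0.05 and open points otherwise. Sema3e and Plxnb2 are filled to the right of 0 in all 4 states and Plxna4 to the left, while Sema4d lies on the left with IFN and on the right with TNF and TNF + IFN.

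The second question was what each cytokine did under each siRNA, and with TNF and TNF + IFN the called members were mostly lower. Under si-control with TNF, 6 members were higher and 12 lower (12% and 24.0% of the 50), beside 16.1% and 14.6% of all tested genes. Under si-control with IFN, 5 members were higher and 4 lower (10.0% and 8.0% of the 50), beside 8.56% and 5.92% of all tested genes. Under si-control with TNF + IFN, 12 members were higher and 22 lower (24.0% and 44.0% of the 50), beside 23.5% and 21.6% of all tested genes. With TNF and with TNF + IFN, the lower share was thus larger among members than among all genes, and the higher share was near or below it. Under si-dnmt with TNF, 6 members were higher and 15 lower (12% and 30.0% of the 50), beside 11.5% and 9.54% of all tested genes. Under si-dnmt with IFN, 4 members were higher and 3 lower (8.0% and 6.00% of the 50), beside 6.66% and 2.35% of all tested genes. Under si-dnmt with TNF + IFN, 7 members were higher and 21 lower (14.0% and 42.0% of the 50), beside 21.3% and 18.9% of all tested genes. The same order of shares held here, again without a test of the difference. The median log2 fold change of the 50 members was −0.38 with TNF and −0.52 with TNF + IFN under si-control, beside −0.0092 and −0.0058 over all genes. Under si-dnmt it was −0.52 and −0.46 in these states, beside 0.0073 and 0.0061. With the replicate block, the calls in either direction were 32 of 50 (43.4% of all genes) for TNF and 22 of 50 (25.4% of all genes) for IFN under si-control, and 32 of 50 (34.3% of all genes) and 21 of 50 (19.0% of all genes) under si-dnmt. In the same libraries, the summed endothelial markers were lower with TNF and TNF + IFN without overlap, at 5921 to 8829, 3897 to 5754 and 3573 to 4999 CPM in si-control, si-control + TNF and si-control + TNF + IFN. Under si-dnmt the sums were 5395 to 8158, 3273 to 4864 and 2820 to 4411 CPM. With IFN they overlapped the untreated range, at 5001 to 7807 CPM under si-control and 5019 to 7014 CPM under si-dnmt. The fibroblast and pericyte sums were higher with TNF and TNF + IFN than in untreated si-control, and among them Dcn went from 0.448 to 1.91 CPM untreated to 11.9 to 53.8 CPM with TNF. The part of either list in the members' changes was not tested. The 6 cytokine comparisons share their untreated groups by siRNA, and 87 of their 117 calls held when each library in turn was left out.

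**Figure D3:**
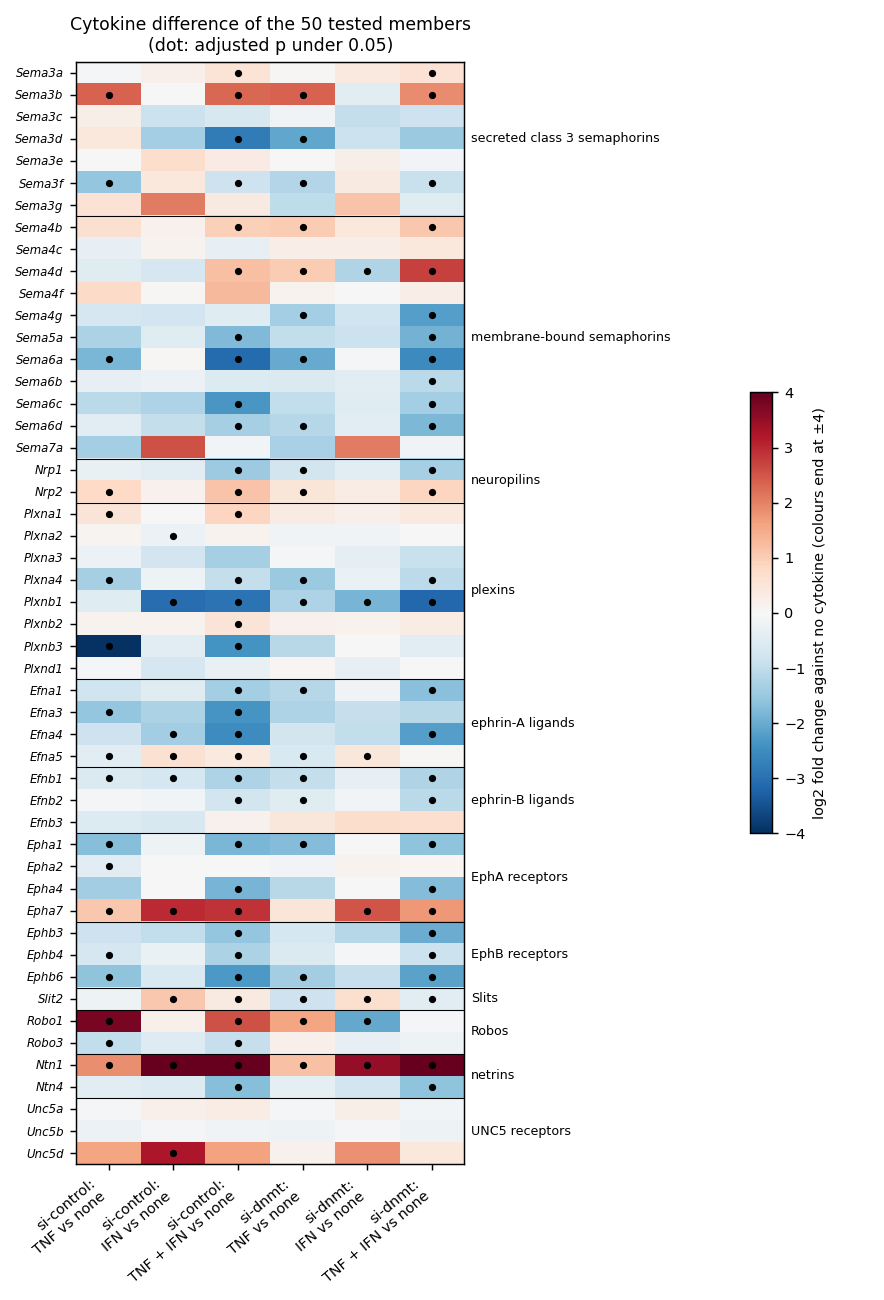
Log2 fold change against no cytokine for the 50 tested members (rows, by family) with TNF, IFN and TNF + IFN under each siRNA (columns), with a dot where adjusted p was under 0.05; the colours end at ±4, beyond which Ntn1 reached 5.22. Blue cells, lower with cytokine, outnumber red ones with TNF and TNF + IFN, and Ntn1 and Epha7 are among the rows that are red with IFN under both siRNAs.

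Whether the cytokine change itself differed between the siRNAs was tested by the interaction of siRNA and cytokine. The edgeR test called no member for TNF (0.0328% of all genes) and none for IFN (0.0459%). An unadjusted p under 0.05 was found for 10 and 5 members, and DESeq2 called 1 and 0. The shares of all genes for the unadjusted and DESeq2 counts are not given here, so those counts cannot be set against all genes. For TNF + IFN the edgeR test called 2 (0.531% of all genes), the Slit receptor Robo1 and the netrin Ntn1, both with a lower change under si-dnmt than under si-control. With the replicate block, the counts were 2 of 50 (0.892% of all genes) for TNF and 8 of 50 (4.18% of all genes) for TNF + IFN.

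Since CpG methylation is what Dnmt1 maintains, the 250 bases before the RefSeq start site (GRCm38.p6) are shown 5′ to 3′ for both members that were higher in all 4 states, with every CpG in capitals. They lie at chr5:14025026-14025275 on the plus strand for Sema3e and at chr15:89180789-89181038 on the minus strand for Plxnb2, the latter being 1 of 2 RefSeq starts of that gene.
Sema3e: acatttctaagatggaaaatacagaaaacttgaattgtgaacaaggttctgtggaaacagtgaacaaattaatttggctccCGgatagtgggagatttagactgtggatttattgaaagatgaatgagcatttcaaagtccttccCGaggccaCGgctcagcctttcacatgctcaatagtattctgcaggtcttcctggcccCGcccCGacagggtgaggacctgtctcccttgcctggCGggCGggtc
Plxnb2: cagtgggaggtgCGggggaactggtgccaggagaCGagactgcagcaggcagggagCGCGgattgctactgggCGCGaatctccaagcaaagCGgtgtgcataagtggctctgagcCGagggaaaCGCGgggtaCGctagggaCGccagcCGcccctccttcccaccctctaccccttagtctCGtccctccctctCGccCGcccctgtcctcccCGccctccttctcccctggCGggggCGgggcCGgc

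The stretch held 7 CpG for Sema3e and 20 for Plxnb2, and with the 50 bases after the start included, 11 and 27. Of the 66 members, 57 had a promoter sequence, and over 250 bases before to 50 after the start, the median gene of these 57 held 23 CpG, against 8 over 27025 symbols. The 11 members called higher in some siRNA comparison had a median of 17 CpG, the 13 called lower 23 and the 19 not called 23, a description with no test. The 9 members without one were Efnb3, Ntn1, Plxna1, Plxna4, Sema3b, Sema3f, Sema6a, Slit1 and Unc5d.

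The promoters of Epha7 (chr4:28812881-28813130, plus strand) and Slit2 (chr5:47982905-47983154, plus strand) are shown because both genes rose with IFN under both siRNAs, and that of Unc5b (chr10:60831582-60831831, minus strand) because no comparison called it without the block.
Epha7: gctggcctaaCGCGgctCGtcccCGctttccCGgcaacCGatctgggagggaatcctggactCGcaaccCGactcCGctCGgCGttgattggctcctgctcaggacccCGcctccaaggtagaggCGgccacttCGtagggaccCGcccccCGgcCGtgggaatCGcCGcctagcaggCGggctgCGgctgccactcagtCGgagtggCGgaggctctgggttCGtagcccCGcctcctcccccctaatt
Slit2: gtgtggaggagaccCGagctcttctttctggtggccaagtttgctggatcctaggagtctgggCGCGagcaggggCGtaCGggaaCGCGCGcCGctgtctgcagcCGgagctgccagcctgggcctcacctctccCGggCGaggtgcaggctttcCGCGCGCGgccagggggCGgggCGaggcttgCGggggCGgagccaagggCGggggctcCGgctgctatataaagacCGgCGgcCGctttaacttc
Unc5b: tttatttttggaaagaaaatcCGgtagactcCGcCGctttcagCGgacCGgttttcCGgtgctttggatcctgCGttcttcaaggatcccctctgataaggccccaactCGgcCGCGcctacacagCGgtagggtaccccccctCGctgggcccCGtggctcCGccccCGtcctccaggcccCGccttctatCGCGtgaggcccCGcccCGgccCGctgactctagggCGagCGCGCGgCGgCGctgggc

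These held 25, 25 and 27 CpG, and 28, 30 and 36 over the longer window of the medians above.

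Among the secreted class 3 semaphorins, the member that the siRNA moved in every state was Sema3e, a cue that repels ECs through Plxnd1. Sema3e measured 48.4, 45.3, 90.3 and 92.0 CPM in si-control replicates 1 to 4 and 117, 137, 232 and 222 CPM in si-dnmt. With TNF it measured 47.7, 36.9, 103 and 91.2 CPM in si-control and 139, 149.5, 192 and 214 CPM in si-dnmt. In both states, and with IFN and TNF + IFN below, every si-dnmt library lay above every si-control library, although replicates 3 and 4 were higher than 1 and 2 within each group. The difference was 1.36 ± 0.29, adjusted p = 0.00118, without cytokine and 1.32 ± 0.29, adjusted p = 0.00146, with TNF. With IFN the libraries held 94.9, 85.7, 146 and 122 CPM under si-control and 196, 171, 252 and 220.4 CPM under si-dnmt (0.90 ± 0.28, adjusted p = 0.0235). With TNF + IFN they held 64.7, 74.2, 104 and 102 CPM under si-control and 151, 146, 191 and 175 CPM under si-dnmt (0.94 ± 0.28, adjusted p = 0.0209). Sema3e lost the siRNA call with IFN on leaving out replicate 1 or 2 of si-control + IFN or replicate 3 of si-dnmt + IFN (0.79 to 1.06, the range of the log2 fold change over the 8 fits that each left out 1 library). Sema3e lost the siRNA call with TNF + IFN on leaving out replicate 1 or 2 of si-control + TNF + IFN or replicate 3 of si-dnmt + TNF + IFN (0.83 to 1.05). The difference with IFN under si-control, 0.70 ± 0.28, adjusted p = 0.106, was called only with the replicate block (0.74, adjusted p = 9.56e-05).

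Sema3f, a repulsive ligand of Nrp2, was lowered by TNF instead. It measured 165, 178, 132 and 122 CPM in si-control and 52.3, 61.7, 49.0 and 43.7 CPM in si-control + TNF. Under si-dnmt the libraries held 151, 128, 78.2 and 92.3 CPM without cytokine and 51.7, 53.7, 43.8 and 51.3 CPM with TNF. No TNF library reached an untreated one under either siRNA. The TNF change was −1.53 ± 0.23, adjusted p = 8.44e-06, under si-control and −1.16 ± 0.23, adjusted p = 0.000438, under si-dnmt. With TNF + IFN it was −0.84 ± 0.23 and −0.88 ± 0.23 (adjusted p = 0.00303 and 0.00256). With IFN alone Sema3f stood at 202 ± 67.5 CPM in si-control (SD, n = 4 libraries), a difference of 0.43 ± 0.22, adjusted p = 0.226, called with the replicate block only (adjusted p = 0.0187).

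Sema3a, another repulsive cue and a ligand of Nrp1, rose with TNF + IFN from libraries at 65.6 to 109.6 CPM to libraries at 112 to 132 CPM under si-control (0.55 ± 0.15, adjusted p = 0.0029). Under si-dnmt it went from 68.4 to 87.8 CPM to 98.3 to 129.6 CPM (0.57 ± 0.15, adjusted p = 0.00275). Sema3b was a low transcript, at 0.0938, 0.0530, 0.132 and 0.359 CPM in si-control. TNF raised it to 0.988, 0.563, 0.606 and 1.25 CPM (2.35 ± 0.46, adjusted p = 0.000258). Together, TNF + IFN brought it to 0.673, 0.625, 0.924 and 1.11 CPM (2.31 ± 0.46, adjusted p = 0.000165). Under si-dnmt it rose as well, by 2.36 ± 0.41 with TNF and 1.89 ± 0.42 with TNF + IFN (adjusted p = 0.000103 and 0.000526). Its TNF and TNF + IFN libraries lay above the untreated ones without overlap under both siRNAs.

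Sema3d, at or under 1.93 CPM in every library, fell with TNF + IFN under si-control from 0.610, 1.01, 0.439 and 0.673 to 0.0961, 0.104, 0 and 0.159 CPM (−2.80 ± 0.85, adjusted p = 0.00864). The latter group held 7 reads of Sema3d in all, and the untreated mean was 7.18 times its mean, with a 95% interval of 3.27 to 18.7 that covers counting error only. Its siRNA difference with TNF was −2.11 ± 0.73, adjusted p = 0.0393, and the sets differed in sign, with −3.47 in replicates 1 and 2 alone and 0.41 in replicates 3 and 4 alone. Sema3d lost the siRNA call with TNF on leaving out replicate 1 or 2 of si-control + TNF or replicate 1, 2 or 3 of si-dnmt + TNF (−2.81 to −1.41). Under si-dnmt, Sema3d fell with TNF (−2.08 ± 0.72, adjusted p = 0.0397). Sema3d lost its TNF call under si-dnmt on leaving out replicate 2, 3 or 4 of si-dnmt or replicate 1, 2 or 3 of si-dnmt + TNF (−2.78 to −1.78).

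Sema3c, which binds both neuropilins, showed a replicate split in every group and no call. It measured 3.52, 3.98, 27.8 and 27.5 CPM in si-control and 7.08, 9.41, 40.1 and 43.5 CPM in si-dnmt, so replicates 3 and 4 exceeded 1 and 2 several-fold under both siRNAs. The siRNA difference was 0.67 ± 0.83, adjusted p = 0.637, and was called with the replicate block (0.79, adjusted p = 0.00972). So were its IFN differences of −0.87 ± 0.86 under si-control and −0.95 ± 0.84 under si-dnmt (block adjusted p = 0.0352 and 0.0182). Sema3g, the last of the class, stayed at or under 0.756 CPM in every library and was not called.

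Both neuropilins were called, in opposite directions with TNF + IFN. Nrp2 measured 643, 739.6, 639 and 681 CPM in si-control, 967, 1054, 1388 and 1302 CPM with TNF and 1458, 1406, 1581 and 1516 CPM with TNF + IFN. It rose by 0.80 ± 0.10 with TNF and 1.14 ± 0.10 with TNF + IFN (adjusted p = 4.98e-07 and 2.08e-10), with no overlap of libraries. Under si-dnmt the libraries held 724, 683, 634 and 598 CPM without cytokine, 873, 908, 899 and 991 CPM with TNF and 1242, 1266, 1174 and 1068 CPM with TNF + IFN. These were rises of 0.48 ± 0.10 and 0.85 ± 0.10 (adjusted p = 0.000867 and 6.49e-08). With TNF the lowest si-control library overlapped the si-dnmt range, and with TNF + IFN every si-dnmt library was below every si-control one. That siRNA difference was −0.36 ± 0.10, adjusted p = 0.00987, with TNF and −0.33 ± 0.10, adjusted p = 0.0206, with TNF + IFN. Nrp2 lost the siRNA call with TNF on leaving out replicate 3 of si-control + TNF (−0.44 to −0.27). Nrp2 lost the siRNA call with TNF + IFN on leaving out replicate 3 of si-control + TNF + IFN or replicate 4 of si-dnmt + TNF + IFN (−0.36 to −0.28). The interactions were not called (−0.33 ± 0.14, adjusted p = 0.65, for TNF, and −0.29 ± 0.14, adjusted p = 0.537, for TNF + IFN).

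Nrp1, the co-receptor of Sema3a and VEGF-A, fell with TNF + IFN from 49.9, 62.7, 93.7 and 99.9 to 18.5, 19.2, 40.4 and 33.4 CPM under si-control (−1.46 ± 0.25, adjusted p = 2.43e-05). Under si-dnmt it went from 49.6, 45.0, 65.4 and 60.6 to 17.5, 17.8, 28.6 and 23.8 CPM (−1.33 ± 0.25, adjusted p = 9.62e-05). No library overlapped in either case. With TNF alone, it was lower in si-dnmt (25.9, 29.2, 37.3 and 39.8 CPM) than in si-control (46.0, 44.0, 74.6 and 82.2 CPM), a difference of −0.90 ± 0.25, adjusted p = 0.0102. TNF also lowered it under si-dnmt (−0.74 ± 0.25, adjusted p = 0.0327). Nrp1 lost its TNF call under si-dnmt on leaving out replicate 3 or 4 of si-dnmt or replicate 1 or 2 of si-dnmt + TNF (−0.84 to −0.64).

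Among the plexins, Plxnb2 and Plxna4 were called in all 4 siRNA comparisons, with opposite signs. Plxnb2 measured 259, 276, 321 and 287 CPM in si-control and 442, 407, 449 and 439 CPM in si-dnmt (0.61 ± 0.13, adjusted p = 0.00109). With TNF the libraries held 244, 277, 350.0 and 383 CPM under si-control and 452, 475, 482 and 534 CPM under si-dnmt (0.63 ± 0.13, adjusted p = 0.000658). With IFN they held 272, 321, 313 and 362 CPM and 472, 398, 497 and 534 CPM, respectively (0.58 ± 0.13, adjusted p = 0.00143). With TNF + IFN they held 366, 326, 467 and 457 CPM and 499.6, 499.9, 600.1 and 556 CPM (0.42 ± 0.13, adjusted p = 0.0218). Every si-dnmt library was above every si-control library in all 4 states. Plxnb2 lost the siRNA call with TNF + IFN on leaving out replicate 1 or 2 of si-control + TNF + IFN or replicate 3 or 4 of si-dnmt + TNF + IFN (0.33 to 0.49). TNF + IFN itself raised Plxnb2 under si-control (0.50 ± 0.13, adjusted p = 0.00193). Under si-dnmt the change of 0.31 ± 0.13, adjusted p = 0.0513, was called only with the block (adjusted p = 0.00422).

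Plxna4, a receptor subunit for Sema3a, went the other way. It measured 55.3, 59.0, 69.4 and 69.3 CPM in si-control and 33.2, 33.5, 49.8 and 37.1 CPM in si-dnmt (−0.72 ± 0.16, adjusted p = 0.00165). With TNF both fell, to 26.5, 32, 21.2 and 20.3 CPM and 13.4, 12.3, 12.8 and 16.7 CPM. The falls were 1.34 ± 0.16 under si-control and 1.48 ± 0.16 under si-dnmt on the log2 scale (adjusted p = 2.81e-07 and 1.28e-07). The siRNA difference persisted in the TNF, IFN and TNF + IFN states, at −0.86 ± 0.16, −0.78 ± 0.16 and −0.80 ± 0.16 (adjusted p = 0.000344, 0.000769 and 0.000728). All 4 siRNA calls held without any 1 library. Plxna4 shares exon bases with an overlapping annotated gene, and reads of the 2 cannot be told apart without strand.

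Plxnd1, the endothelial receptor of Sema3e, was lower with si-dnmt. It measured 363, 447, 317 and 288 CPM in si-control and 236, 232, 132 and 136 CPM in si-dnmt (−0.94 ± 0.24, adjusted p = 0.00625). Among TNF libraries, si-control held 364, 458, 266 and 277 CPM and si-dnmt 224, 233, 145 and 169.9 CPM (−0.82 ± 0.24, adjusted p = 0.0155). Plxnd1 lost the siRNA call with TNF on leaving out replicate 2 of si-control + TNF or replicate 3 or 4 of si-dnmt + TNF (−0.93 to −0.65). With IFN and TNF + IFN the differences of −0.61 ± 0.24 and −0.63 ± 0.24 had adjusted p = 0.07 and 0.0668, and were called with the replicate block (adjusted p = 1.17e-05 and 8.7e-06). Without cytokine, a ligand and its receptor, Sema3e and Plxnd1, thus carried opposite siRNA differences in the same libraries. No cytokine comparison called Plxnd1 in the fit without the block, where IFN gave −0.66 ± 0.24, adjusted p = 0.0656, under si-control (block adjusted p = 5.4e-06).

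**Figure D4:**
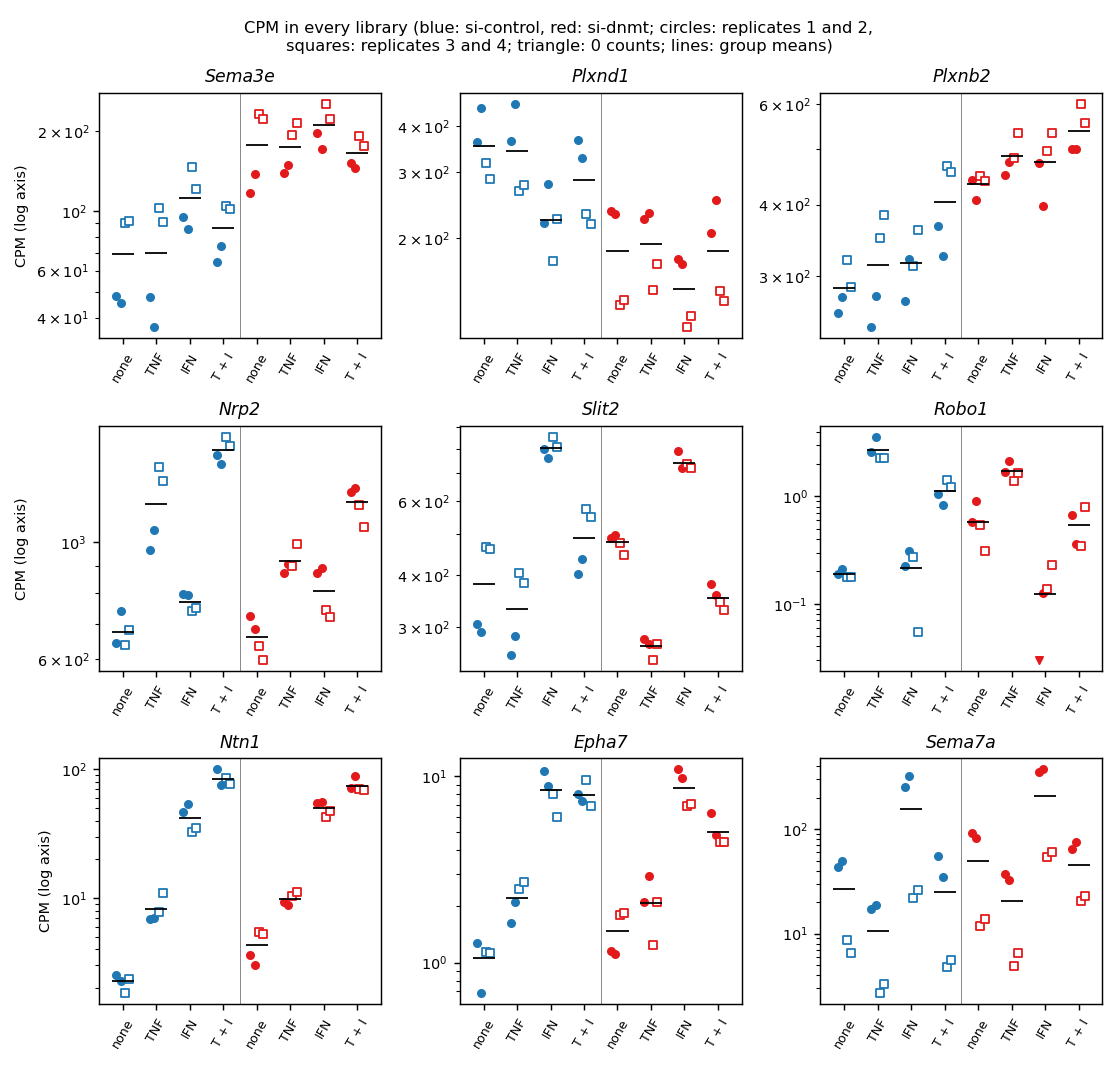
Level (CPM, log axis) of 9 members in each of the 32 libraries, by group, with si-control in blue and si-dnmt in red, circles for replicates 1 and 2, squares for 3 and 4, a line at each group mean and a triangle for the 1 library with 0 counts (Robo1, si-dnmt + IFN replicate 1). Sema3e and Plxnb2 lie higher and Plxnd1 lower in red, Ntn1 and Epha7 rise in the IFN groups, and the circles of Sema7a lie above its squares in every group.

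Of the other plexins, Plxna2 was higher with si-dnmt without cytokine (251 ± 16.2 against 308 ± 32.5 CPM, 0.29 ± 0.07, adjusted p = 0.00527) and with IFN (0.37 ± 0.07, adjusted p = 0.000684). Under si-control it fell with IFN (−0.22 ± 0.07, adjusted p = 0.0439). Plxna2 lost its IFN call under si-control on leaving out replicate 2 of si-control or replicate 1, 3 or 4 of si-control + IFN (−0.25 to −0.17). Plxna1, with Plxna2 a signaling partner of the neuropilins, rose with TNF + IFN under si-control from libraries at 113 to 169.6 CPM to libraries at 232 to 265 CPM (0.86 ± 0.18, adjusted p = 0.000258). It also rose with TNF there (0.52 ± 0.18, adjusted p = 0.0273). Plxna1 lost its TNF call under si-control on leaving out replicate 1 or 2 of si-control or replicate 3 or 4 of si-control + TNF (0.36 to 0.67). Plxnb1, a receptor of Sema4d, fell with IFN from 1.08, 1.06, 1.85 and 1.52 to 0.168, 0.156, 0.0545 and 0.270 CPM under si-control (−3.04 ± 0.41, adjusted p = 2.6e-06). Under si-dnmt it went from 0.935, 0.513, 1.16 and 1.08 to 0.278, 0.252, 0.184 and 0.288 CPM (−1.85 ± 0.38, adjusted p = 0.00107). None of its IFN libraries reached an untreated one. With TNF + IFN it fell by 2.97 and 3.15 (adjusted p = 8.73e-07 and 2.3e-06). The 4 si-dnmt + TNF + IFN libraries held 7 reads of it, and the untreated mean was 9.49 times as high (95% counting interval 4.44 to 24.2). With TNF, Plxnb1 was lower in si-dnmt than in si-control (−1.34 ± 0.37, adjusted p = 0.00985). TNF lowered it under si-dnmt (−1.23 ± 0.36, adjusted p = 0.0158). Plxnb1 lost its TNF call under si-dnmt on leaving out replicate 1 of si-dnmt + TNF (−1.46 to −1.09).

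Plxnb3 fell with TNF under si-control from 2.49, 2.70, 0.439 and 0.942 to 0.215, 0.141, 0.0433 and 0 CPM (−3.94 ± 0.72, adjusted p = 0.000111). TNF + IFN lowered it to 0.336, 0.312, 0.431 and 0.159 CPM (−2.39 ± 0.63, adjusted p = 0.00276). With TNF its si-dnmt libraries held 0.778, 0.751, 0.231 and 0.411 CPM, an siRNA difference of 2.37 ± 0.77, adjusted p = 0.0286. Plxnb3 lost the siRNA call with TNF on leaving out replicate 3 or 4 of si-control + TNF or replicate 1 or 2 of si-dnmt + TNF (1.99 to 3.04). The matching interaction, 2.82 ± 0.94, adjusted p = 0.463, was called only with the block (adjusted p = 0.0368). Plxna3, a partner of Nrp2, was called in no comparison without the block and lay at 0.521 to 5.54 CPM.

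Among the membrane-bound semaphorins tested, Sema6a fell furthest. Sema6a, a ligand of Plxna2 and Plxna4, measured 21.6, 22.6, 12.7 and 13.9 CPM in si-control, 7.43, 7.97, 2.38 and 2.14 CPM with TNF and 2.98, 2.76, 1.29 and 1.22 CPM with TNF + IFN. It fell by 1.83 and 3.08 on the log2 scale (adjusted p = 0.00071 and 8.02e-07), with no overlap, whereas the IFN libraries held 18.5, 22.1, 15.5 and 16.4 CPM. Under si-dnmt the falls were 2.02 and 2.54 (adjusted p = 0.000701 and 2.47e-05). Sema6a was also lower with si-dnmt under TNF (−1.23 ± 0.41, adjusted p = 0.0348) and IFN (−1.16 ± 0.38, adjusted p = 0.0303). Sema6a lost the siRNA call with TNF on leaving out replicate 1 or 2 of si-control + TNF or replicate 2, 3 or 4 of si-dnmt + TNF (−1.48 to −0.91). Sema6a lost the siRNA call with IFN on leaving out replicate 1 or 2 of si-control + IFN or replicate 3 or 4 of si-dnmt + IFN (−1.34 to −1.01). Without cytokine its difference was −1.03 ± 0.38, adjusted p = 0.0573, and it was called with the block (adjusted p = 0.00021).

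Sema6d, which signals through Plxna1 and is linked to VEGFR2, fell with TNF + IFN from libraries at 15.4 to 34.6 CPM to libraries at 5.30 to 13.5 CPM under si-control (−1.33 ± 0.37, adjusted p = 0.00405). Under si-dnmt it went from 14.2 to 20.0 CPM to 2.37 to 7.02 CPM (−1.81 ± 0.38, adjusted p = 0.000333). With TNF it was lower in si-dnmt (−1.17 ± 0.37, adjusted p = 0.0239) and fell under si-dnmt (−1.15 ± 0.37, adjusted p = 0.0255). Sema6d lost the siRNA call with TNF on leaving out replicate 1 or 2 of si-control + TNF or replicate 3 or 4 of si-dnmt + TNF (−1.41 to −0.87). Sema6d lost its TNF call under si-dnmt on leaving out replicate 1 or 2 of si-dnmt or replicate 3 or 4 of si-dnmt + TNF (−1.30 to −0.99). Sema6b was lower in si-dnmt with TNF + IFN (44.3 ± 6.93 against 24.6 ± 8.09 CPM, −0.85 ± 0.24, adjusted p = 0.0148). Sema6b lost the siRNA call with TNF + IFN on leaving out replicate 3 or 4 of si-dnmt + TNF + IFN (−1.09 to −0.73). TNF + IFN lowered Sema6b under si-dnmt (−1.09 ± 0.24, adjusted p = 0.000685). Sema6c, at or under 1.84 CPM, was the one class 6 member higher in si-dnmt, by 1.33 ± 0.45, adjusted p = 0.0339, with IFN. The difference was 1.55 ± 0.53, adjusted p = 0.0399, with TNF + IFN. Sema6c lost the siRNA call with IFN on leaving out replicate 1, 2 or 4 of si-control + IFN or replicate 1, 3 or 4 of si-dnmt + IFN (1.18 to 1.54). Sema6c lost the siRNA call with TNF + IFN on leaving out replicate 1, 2 or 3 of si-control + TNF + IFN or replicate 3 or 4 of si-dnmt + TNF + IFN (1.24 to 1.93). TNF + IFN lowered Sema6c under both siRNAs, by 2.32 and 1.36 (adjusted p = 0.000357 and 0.0117).

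Sema4d, the pro-angiogenic ligand of Plxnb1, rose with TNF + IFN under both siRNAs. It measured 0.704, 0.636, 0.835 and 1.03 CPM in si-control and 2.40, 1.25, 2.10 and 1.75 CPM with TNF + IFN (1.21 ± 0.28, adjusted p = 0.000659). Under si-dnmt the libraries held 0.579, 0.471, 0.307 and 0.730 CPM without cytokine against 4.43, 3.84, 2.83 and 2.77 CPM with TNF + IFN (2.72 ± 0.28, adjusted p = 7.03e-09). The groups did not overlap under either siRNA. Its siRNA difference was 0.90 ± 0.29 with TNF and 0.88 ± 0.26 with TNF + IFN but −1.13 ± 0.34 with IFN (adjusted p = 0.0268, 0.017 and 0.0192). Sema4d lost the siRNA call with TNF on leaving out replicate 2, 3 or 4 of si-control + TNF or replicate 2 of si-dnmt + TNF (0.67 to 1.09). Sema4d lost the siRNA call with TNF + IFN on leaving out replicate 2 of si-control + TNF + IFN or replicate 1 of si-dnmt + TNF + IFN (0.73 to 1.03). Sema4d lost the siRNA call with IFN on leaving out replicate 2 or 4 of si-control + IFN or replicate 2 of si-dnmt + IFN (−1.27 to −0.98). The interaction with TNF + IFN was 1.5 ± 0.39, adjusted p = 0.0763, called with the block only (adjusted p = 0.0213). Under si-dnmt, TNF raised Sema4d (1.03 ± 0.29, adjusted p = 0.0107) and IFN lowered it (−1.19 ± 0.33, adjusted p = 0.0189). Sema4d lost its TNF call under si-dnmt on leaving out replicate 2 of si-dnmt + TNF (0.80 to 1.25). Sema4d lost its IFN call under si-dnmt on leaving out replicate 4 of si-dnmt or replicate 2 of si-dnmt + IFN (−1.38 to −0.97).

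Sema7a, a GPI-anchored semaphorin that binds integrins and Plxnc1, was split by the replicate sets. It measured 43.0, 49.3, 8.66 and 6.55 CPM in si-control, 251, 324, 22.0 and 26.0 CPM with IFN and 54.8, 34.5, 4.81 and 5.61 CPM with TNF + IFN. In si-dnmt the libraries held 91.7, 82.8, 11.8 and 13.7 CPM without cytokine and 349, 371, 53.8 and 60.8 CPM with IFN. Replicates 1 and 2 were several times as high as 3 and 4 in each of these groups, and within each set every IFN library lay above every untreated one. The IFN difference under si-control, 2.54 ± 1.01, adjusted p = 0.0989, was not called. With the replicate block it was (2.24, adjusted p = 5.53e-09), with 2.66 in replicates 1 and 2 alone and 1.66 in replicates 3 and 4 alone. Under si-dnmt it was 2.06 ± 0.99, adjusted p = 0.245, and 2.10, adjusted p = 1.09e-08, with the block. Its siRNA difference without cytokine, 0.90 ± 0.97, adjusted p = 0.583, was likewise called only with the block (adjusted p = 0.00448).

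Sema4b rose with TNF + IFN under both siRNAs (0.96 ± 0.36, adjusted p = 0.0302, and 1.06 ± 0.35, adjusted p = 0.0163). TNF raised it under si-dnmt from 7.14 to 15.0 CPM to 13.1 to 32.1 CPM (1.02 ± 0.35, adjusted p = 0.0367). With TNF it was higher in si-dnmt than in si-control (1.03 ± 0.35, adjusted p = 0.0382). Sema4b lost its TNF + IFN call under si-control on leaving out replicate 1 or 2 of si-control or replicate 3 or 4 of si-control + TNF + IFN (0.72 to 1.15). Sema4b lost its TNF + IFN call under si-dnmt on leaving out replicate 1 or 2 of si-dnmt or replicate 4 of si-dnmt + TNF + IFN (0.89 to 1.23). Sema4b lost its TNF call under si-dnmt on leaving out replicate 1 or 2 of si-dnmt or replicate 3 or 4 of si-dnmt + TNF (0.82 to 1.22). Sema4b lost the siRNA call with TNF on leaving out replicate 1 or 2 of si-control + TNF or replicate 3 or 4 of si-dnmt + TNF (0.83 to 1.23). Sema5a, at or under 1.92 CPM, fell with TNF + IFN under si-control (−1.77 ± 0.53, adjusted p = 0.00709) and si-dnmt (−1.89 ± 0.49, adjusted p = 0.00254). Without replicate 4 of si-control + TNF + IFN the first change was −2.68, the extreme of −2.68 to −1.43. Sema4g fell under si-dnmt with TNF (−1.36 ± 0.35, adjusted p = 0.00554) and TNF + IFN (−2.19 ± 0.38, adjusted p = 2.75e-05). Without the block, no comparison called Sema4c, at 20.5 to 81.7 CPM, or Sema4f, at or under 0.823 CPM.

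Of the 7 ephrin ligands tested, TNF + IFN lowered 5 under si-control and raised 1, Efna5, beside 21.6% of all genes lower and 23.5% higher, a difference that was not tested. Efnb2, the arterial ligand, measured 76.2, 82.1, 94.2 and 94.0 CPM in si-control and 39.7, 44.4, 62.9 and 60.1 CPM with TNF + IFN (−0.74 ± 0.16, adjusted p = 0.000469). Under si-dnmt the libraries held 80.9, 87.9, 107 and 104 CPM without cytokine against 39.9, 40.1, 48.0 and 50.5 CPM with TNF + IFN (−1.09 ± 0.16, adjusted p = 4.31e-06). In both cases all 4 TNF + IFN libraries were below the untreated ones. Under si-dnmt, TNF alone lowered it too (−0.47 ± 0.16, adjusted p = 0.038). Efnb2 lost its TNF call under si-dnmt on leaving out replicate 3 or 4 of si-dnmt or replicate 1, 2, 3 or 4 of si-dnmt + TNF (−0.54 to −0.41). Efnb1 fell with TNF + IFN by 1.23 under si-control and 1.21 under si-dnmt (adjusted p = 1.33e-05 and 2.48e-05). TNF lowered it under si-dnmt (−0.97 ± 0.20, adjusted p = 0.00088). Under si-control it fell with IFN (−0.72 ± 0.20, adjusted p = 0.0132) and TNF (−0.58 ± 0.20, adjusted p = 0.026). Efnb1 lost its IFN call under si-control on leaving out replicate 2 of si-control (−0.88 to −0.63). Efnb1 lost its TNF call under si-control on leaving out replicate 1 or 2 of si-control or replicate 1 or 3 of si-control + TNF (−0.71 to −0.43). With TNF, Efnb1 was lower in si-dnmt (−0.65 ± 0.20, adjusted p = 0.0224). Efnb1 lost the siRNA call with TNF on leaving out replicate 2 or 4 of si-control + TNF or replicate 1 or 3 of si-dnmt + TNF (−0.80 to −0.52). Efnb3 stayed at or under 0.704 CPM and was not called.

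Efna1, a ligand of Epha2 first described as a TNF-induced gene of ECs, fell with TNF + IFN under both siRNAs. It measured 70.1, 74.4, 49.6 and 48.0 CPM in si-control, 47.3, 51.7, 19.0 and 22.2 CPM with TNF and 30.1, 29.5, 17.4 and 17.3 CPM with TNF + IFN. For si-dnmt the values were 51.2, 50.6, 23.3 and 25.6 CPM, 24.2, 22.1, 10.6 and 11.8 CPM and 14.3, 16.4, 8.33 and 8.69 CPM in the same order. Replicates 1 and 2 were higher than 3 and 4 throughout, and within each set TNF + IFN was the lowest of these 3 states. The TNF + IFN change was −1.36 ± 0.34, adjusted p = 0.00186, under si-control and −1.66 ± 0.35, adjusted p = 0.000355, under si-dnmt. With TNF, the difference under si-control (−0.79 ± 0.34, adjusted p = 0.0775) was called only with the block (adjusted p = 1.67e-07). Under si-dnmt TNF lowered it (−1.13 ± 0.34, adjusted p = 0.0184). Efna1 lost its TNF call under si-dnmt on leaving out replicate 1 or 2 of si-dnmt or replicate 3 or 4 of si-dnmt + TNF (−1.34 to −0.95). Efna1 was lower in si-dnmt with TNF (−1.03 ± 0.34, adjusted p = 0.033) and TNF + IFN (−0.99 ± 0.35, adjusted p = 0.0497). Efna1 lost the siRNA call with TNF on leaving out replicate 1 or 2 of si-control + TNF or replicate 3 or 4 of si-dnmt + TNF (−1.24 to −0.78). Efna1 lost the siRNA call with TNF + IFN on leaving out replicate 1 or 2 of si-control + TNF + IFN or replicate 1, 3 or 4 of si-dnmt + TNF + IFN (−1.18 to −0.85).

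Efna5, a ligand of several EphA receptors, rose with IFN from 18.0, 19.5, 16.7 and 20.0 CPM in si-control to 31.8, 24.2, 29.8 and 26.9 CPM with IFN (0.60 ± 0.13, adjusted p = 0.00162). TNF lowered it under si-dnmt (−0.60 ± 0.13, adjusted p = 0.00168). Under si-control it fell with TNF (−0.43 ± 0.13, adjusted p = 0.0141) and rose with TNF + IFN (0.38 ± 0.13, adjusted p = 0.0202). Efna5 lost its TNF call under si-control on leaving out replicate 4 of si-control + TNF (−0.54 to −0.36). Efna5 lost its TNF + IFN call under si-control on leaving out replicate 3 of si-control or replicate 1 or 2 of si-control + TNF + IFN (0.30 to 0.44). IFN raised it under si-dnmt (0.44 ± 0.13, adjusted p = 0.0305), and with TNF + IFN it was lower in si-dnmt (−0.46 ± 0.13, adjusted p = 0.0154). Efna5 lost its IFN call under si-dnmt on leaving out replicate 1, 2 or 4 of si-dnmt or replicate 1, 2 or 3 of si-dnmt + IFN (0.36 to 0.53). Efna5 lost the siRNA call with TNF + IFN on leaving out replicate 2 of si-control + TNF + IFN or replicate 3 or 4 of si-dnmt + TNF + IFN (−0.54 to −0.38). Efna4 fell with IFN under si-control (−1.39 ± 0.35, adjusted p = 0.00591) and with TNF + IFN under both siRNAs, by 2.53 and 2.19 (adjusted p = 2.84e-06 and 3.23e-05). Efna3, at or under 1.13 CPM, fell with TNF + IFN under si-control (−2.35 ± 0.64, adjusted p = 0.00368). These 4 libraries held 7 reads of it, and the untreated mean was 5.42 times as high (95% counting interval 2.42 to 14.3). In that state si-dnmt held 4.42 times as much (1.89 to 11.9, 2.05 ± 0.67, adjusted p = 0.0313). Efna3 lost the siRNA call with TNF + IFN on leaving out replicate 2 or 4 of si-control + TNF + IFN or replicate 2, 3 or 4 of si-dnmt + TNF + IFN (1.66 to 2.49). TNF lowered Efna3 under si-control (−1.55 ± 0.57, adjusted p = 0.0376). Efna3 lost its TNF call under si-control on leaving out replicate 1, 3 or 4 of si-control or replicate 2 or 4 of si-control + TNF (−1.84 to −1.16).

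Of the 7 Eph receptors tested, Epha7, best known from the nervous system, rose most. It measured 1.27, 0.689, 1.14 and 1.12 CPM in si-control, 10.7, 8.79, 8.02 and 5.99 CPM with IFN and 8.02, 7.34, 9.55 and 6.88 CPM with TNF + IFN. The si-dnmt libraries held 1.16, 1.11, 1.81 and 1.84 CPM, 10.8, 9.75, 6.95 and 7.04 CPM and 6.34, 4.80, 4.45 and 4.44 CPM in these states. The IFN and TNF + IFN libraries lay above the untreated ones without overlap under both siRNAs. The IFN rise was 2.97 ± 0.25, adjusted p = 3.98e-10, under si-control and 2.53 ± 0.24, adjusted p = 6.09e-09, under si-dnmt. The TNF + IFN rise was 2.90 ± 0.25 and 1.74 ± 0.24 (adjusted p = 2.13e-10 and 1.17e-06). TNF alone raised it under si-control (1.06 ± 0.26, adjusted p = 0.00216). With TNF + IFN it was lower in si-dnmt (−0.67 ± 0.23, adjusted p = 0.0411). Epha7 lost the siRNA call with TNF + IFN on leaving out replicate 1, 2 or 3 of si-control + TNF + IFN or replicate 2, 3 or 4 of si-dnmt + TNF + IFN (−0.80 to −0.57).

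Epha2, the main Eph receptor of angiogenic ECs, lay between group means of 88.9 and 146 CPM. TNF lowered it under si-control from 133, 124, 116 and 112 to 94.2, 99.1, 77.9 and 84.5 CPM (−0.45 ± 0.09, adjusted p = 0.000326). With TNF it was higher in si-dnmt, at 127, 139.5, 109 and 115 CPM (0.46 ± 0.09, adjusted p = 0.000418). It was also higher in si-dnmt with IFN (0.28 ± 0.09, adjusted p = 0.0231). Epha2 lost the siRNA call with IFN on leaving out replicate 1 or 3 of si-control + IFN or replicate 1, 3 or 4 of si-dnmt + IFN (0.25 to 0.34). Epha4, a receptor of both ephrin classes, fell with TNF + IFN under si-control (−1.86 ± 0.56, adjusted p = 0.00754) and si-dnmt (−1.73 ± 0.56, adjusted p = 0.0147). Epha4 lost its TNF + IFN call under si-dnmt on leaving out replicate 3 of si-dnmt or replicate 1 of si-dnmt + TNF + IFN (−1.98 to −1.29). Epha1, at or under 2.49 CPM, fell with TNF + IFN under si-control (−1.83 ± 0.57, adjusted p = 0.0101). It fell with TNF under si-control (−1.70 ± 0.56, adjusted p = 0.0206) and si-dnmt (−1.74 ± 0.60, adjusted p = 0.0383), and with TNF + IFN under si-dnmt (−1.61 ± 0.61, adjusted p = 0.0364). Epha1 lost its TNF call under si-control on leaving out replicate 1 of si-control or replicate 3 or 4 of si-control + TNF (−2.08 to −1.34). Epha1 lost its TNF call under si-dnmt on leaving out replicate 1 or 2 of si-dnmt or replicate 2, 3 or 4 of si-dnmt + TNF (−2.79 to −1.39). The value of −2.79 came without replicate 1 of si-dnmt + TNF. Epha1 lost its TNF + IFN call under si-dnmt on leaving out replicate 1 or 2 of si-dnmt or replicate 1, 2, 3 or 4 of si-dnmt + TNF + IFN (−1.91 to −1.25).

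Ephb4, which binds Efnb2, measured 356, 375, 276 and 259 CPM in si-control and 163, 145, 109.8 and 109.7 CPM with TNF + IFN (−1.26 ± 0.23, adjusted p = 6.41e-05). Under si-dnmt its libraries were at 282, 258, 163 and 175 CPM without cytokine against 121, 138, 109 and 115 CPM with TNF + IFN (−0.86 ± 0.23, adjusted p = 0.00381). All TNF + IFN libraries were below all untreated libraries under each siRNA, so both the venous receptor and its arterial ligand were lower in that state. TNF alone lowered Ephb4 under si-control (−0.67 ± 0.23, adjusted p = 0.0285). Ephb4 lost its TNF call under si-control on leaving out replicate 1 or 2 of si-control or replicate 3 or 4 of si-control + TNF (−0.86 to −0.53). Its siRNA difference without cytokine, −0.53 ± 0.23, adjusted p = 0.117, was called only with the block (adjusted p = 7.85e-05). Ephb6, a kinase-dead receptor, fell with TNF (−1.60 ± 0.37, adjusted p = 0.00138, and −1.39 ± 0.37, adjusted p = 0.00706) and TNF + IFN (−2.29 ± 0.39, adjusted p = 1.95e-05, and −2.14 ± 0.39, adjusted p = 5.91e-05) under si-control and si-dnmt. Ephb3, at or under 2.90 CPM, fell with TNF + IFN under both (−1.55 ± 0.62, adjusted p = 0.0434, and −1.98 ± 0.63, adjusted p = 0.0135). Ephb3 lost its TNF + IFN call under si-control on leaving out replicate 3 or 4 of si-control or replicate 1, 2 or 4 of si-control + TNF + IFN (−1.86 to −1.27). Ephb3 lost its TNF + IFN call under si-dnmt on leaving out replicate 2 of si-dnmt + TNF + IFN (−2.46 to −1.67).

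Slit2, a secreted ligand of the Robos, rose with IFN under both siRNAs. It measured 306, 292, 466 and 462 CPM in si-control and 797, 762, 855 and 806 CPM with IFN (1.08 ± 0.14, adjusted p = 1.33e-06). Under si-dnmt it measured 491, 498, 477 and 446 CPM without cytokine and 789, 719, 737 and 718 CPM with IFN (0.63 ± 0.14, adjusted p = 0.00252). The IFN libraries did not overlap the untreated ones under either siRNA. With TNF under si-dnmt it fell to 282, 274, 251 and 274 CPM (−0.82 ± 0.14, adjusted p = 9.01e-05). Under si-control the TNF libraries held 258, 285, 404 and 383 CPM (−0.20 ± 0.14, adjusted p = 0.302). With TNF + IFN it rose under si-control (0.36 ± 0.14, adjusted p = 0.0348) and fell under si-dnmt (−0.44 ± 0.14, adjusted p = 0.0132). Slit2 lost its TNF + IFN call under si-control on leaving out replicate 1 or 2 of si-control or replicate 3 or 4 of si-control + TNF + IFN (0.26 to 0.47). The interaction with TNF + IFN, −0.80 ± 0.20, adjusted p = 0.0594, was not called without the block and was with it (adjusted p = 0.00697). In that state Slit2 was lower in si-dnmt (−0.48 ± 0.14, adjusted p = 0.0174). Slit2 lost the siRNA call with TNF + IFN on leaving out replicate 3 or 4 of si-control + TNF + IFN or replicate 4 of si-dnmt + TNF + IFN (−0.56 to −0.39). Slit1 and Slit3 were not tested, and the highest group mean of Slit3 was 0.132 CPM.

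Robo1, a receptor of Slit2, was a low transcript with wide changes. It measured 0.188, 0.212, 0.176 and 0.179 CPM in si-control, and TNF raised it to 2.62, 3.61, 2.29 and 2.27 CPM (3.80 ± 0.41, adjusted p = 4.37e-08). Both cytokines together brought it to 1.06, 0.833, 1.42 and 1.22 CPM (2.55 ± 0.42, adjusted p = 1.29e-05). In si-dnmt it measured 0.579, 0.898, 0.546 and 0.313 CPM, above si-control by 1.59 ± 0.43, adjusted p = 0.0095. TNF brought it to 1.69, 2.16, 1.38 and 1.65 CPM (1.56 ± 0.35, adjusted p = 0.00191). Under si-dnmt, IFN lowered it to 0, 0.126, 0.138 and 0.231 CPM (−2.04 ± 0.44, adjusted p = 0.00191). TNF + IFN left it at 0.677, 0.36, 0.347 and 0.790 CPM (−0.08 ± 0.39, adjusted p = 0.94). The rise with TNF + IFN was therefore called only under si-control. That interaction was −2.63 ± 0.57, adjusted p = 0.0257. Robo1 lost the interaction call for TNF + IFN on leaving out replicate 1, 3 or 4 of si-control or replicate 3 of si-control + TNF + IFN or replicate 2 of si-dnmt or replicate 3 of si-dnmt + TNF + IFN (−2.87 to −2.35, over 16 fits). Robo3, a divergent Robo, was higher in si-dnmt with TNF (1.62 ± 0.436 against 3.49 ± 1.02 CPM, 1.10 ± 0.30, adjusted p = 0.0102). It fell with TNF (−0.97 ± 0.30, adjusted p = 0.0155) and TNF + IFN (−0.93 ± 0.31, adjusted p = 0.0142) under si-control. Robo3 lost the siRNA call with TNF on leaving out replicate 2 of si-dnmt + TNF (0.89 to 1.30). Robo3 lost its TNF call under si-control on leaving out replicate 1 of si-control or replicate 3 of si-control + TNF (−1.17 to −0.69). Robo3 lost its TNF + IFN call under si-control on leaving out replicate 1 of si-control or replicate 3 or 4 of si-control + TNF + IFN (−1.28 to −0.65).

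Ntn1, a secreted netrin that binds Unc5b in vessels, had the largest rise of the members tested. It measured 2.53, 2.28, 1.85 and 2.38 CPM in si-control, 6.88, 7.03, 7.87 and 11.0 CPM with TNF, 46.3, 54.0, 32.6 and 34.9 CPM with IFN and 99.7, 76.1, 85.5 and 76.8 CPM with TNF + IFN. The rises were 1.86 ± 0.20, 4.21 ± 0.20 and 5.22 ± 0.21 (adjusted p = 3.49e-08, 2.12e-15 and 1.49e-17). Under si-dnmt it measured 3.60, 3.04, 5.49 and 5.28 CPM, 9.29, 8.82, 10.3 and 11.1 CPM, 55.2, 55.9, 42.7 and 47.3 CPM and 71.3, 88.5, 70.2 and 68.8 CPM in these states. Its rises were 1.17 ± 0.18, 3.52 ± 0.19 and 4.09 ± 0.19 (adjusted p = 2.72e-05, 4.49e-14 and 9.26e-16). Every treated library exceeded every untreated one, and the calls held without any 1 library. Without cytokine Ntn1 was higher in si-dnmt (0.95 ± 0.20, adjusted p = 0.00104). Its rise with TNF + IFN was smaller there, by an interaction of −1.13 ± 0.26, adjusted p = 0.0366. Ntn1 lost the interaction call for TNF + IFN on leaving out replicate 1, 2, 3 or 4 of si-control or replicate 1 or 3 of si-control + TNF + IFN or replicate 3 or 4 of si-dnmt or replicate 1, 3 or 4 of si-dnmt + TNF + IFN (−1.27 to −1.0). The siRNA difference in the TNF + IFN state itself was −0.18 ± 0.17, adjusted p = 0.523.

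Ntn4, a basement membrane netrin, fell with TNF + IFN from 29.4, 30.5, 64.9 and 67.5 to 6.97, 7.34, 21.8 and 23.0 CPM under si-control (−1.71 ± 0.55, adjusted p = 0.0127). Under si-dnmt it went from 50.7, 50.8, 120.2 and 105 to 13.5, 11.8, 41.4 and 39.1 CPM (−1.62 ± 0.54, adjusted p = 0.0177). Ntn4 lost its TNF + IFN call under si-dnmt on leaving out replicate 3 of si-dnmt or replicate 1 or 2 of si-dnmt + TNF + IFN (−1.92 to −1.38). Its replicates 3 and 4 were higher than 1 and 2 in each group, and within each set the si-dnmt libraries were higher than the si-control ones. The siRNA differences were 0.76 ± 0.53, 0.84 ± 0.53, 0.55 ± 0.53 and 0.85 ± 0.55 in the 4 states (adjusted p = 0.35, 0.293, 0.511 and 0.319). They were called only with the block (adjusted p = 4.33e-07, 4.21e-08, 0.000107 and 5.73e-07).

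Unc5b, the netrin receptor of ECs, was detected in every library. It measured 125, 121, 146 and 134 CPM in si-control and 91.4, 101, 124 and 139.9 CPM in si-dnmt + TNF + IFN, and its group means lay between 111 and 132 CPM. No comparison called it without the block, the largest difference being −0.25 ± 0.13, adjusted p = 0.147, for TNF under si-control (block adjusted p = 0.0396). Unc5d rose with IFN under si-control, from 0.0469, 0.318, 0.132 and 0 to 1.51, 1.82, 0.709 and 0.594 CPM (3.22 ± 0.72, adjusted p = 0.00202). Under si-dnmt the IFN libraries held 0.389, 0.673, 0.184 and 0.317 CPM (1.84 ± 0.75, adjusted p = 0.142). The interaction was not called (−1.38 ± 1.11, adjusted p = 1). Unc5a, at 0.650 to 4.50 CPM, was called in no comparison without the block, and with it the siRNA difference without cytokine was (0.75, adjusted p = 0.0117).

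Of 65 partners of these families outside the naming rule (14 receptors and ligands and 51 intracellular mediators), 58 were tested. With si-dnmt, 5 were higher and 7 lower without cytokine (8.62% and 12.1%, beside 9.58% and 8.88% of all genes). The counts were 5 and 11 with TNF (8.62% and 19.0%, beside 10.4% and 9.59%) and 8 and 8 with IFN (13.8% each, beside 10.8% and 9.54%). With TNF + IFN they were 5 and 9 (8.62% and 15.5%, beside 8.97% and 8.72%). Ssh1, a phosphatase that activates cofilin, was higher in all 4 states (0.73 ± 0.08, adjusted p = 4.93e-07, without cytokine), as was Flrt3, a ligand of UNC5 receptors (0.83 ± 0.17, adjusted p = 0.000675). Crk, an adaptor protein that acts below Eph receptors, and Dock1, an exchange factor for Rac, were lower in all 4 (−0.70 ± 0.16, adjusted p = 0.00295, and −0.60 ± 0.14, adjusted p = 0.00262, without cytokine). Rgma, a ligand of neogenin, was lower with TNF, IFN and TNF + IFN (−1.90 ± 0.39, adjusted p = 0.000821, in the last).

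Under si-control, 5 partners rose and 10 fell with TNF (8.62% and 17.2%, beside 16.1% and 14.6% of all genes). With IFN 6 rose and 8 fell (10.3% and 13.8%, beside 8.56% and 5.92%), and with TNF + IFN 9 and 20 (15.5% and 34.5%, beside 23.5% and 21.6%). Under si-dnmt the counts were 1 and 10 with TNF (1.72% and 17.2%, beside 11.5% and 9.54%) and 6 and 3 with IFN (10.3% and 5.17%, beside 6.66% and 2.35%). With TNF + IFN they were 7 and 19 (12.1% and 32.8%, beside 21.3% and 18.9%). None of these differences in share was tested. Neo1, the neogenin receptor of netrins and RGMs, fell from 844 to 168 CPM with TNF under si-control (−2.33 ± 0.38, adjusted p = 2.4e-05) and by 2.83 with TNF + IFN. Mical2 and Ablim1, which act on actin, fell with TNF (−1.65 ± 0.17, adjusted p = 2.01e-08, and −1.27 ± 0.31, adjusted p = 0.00211). Rnd1 instead rose under si-control, from 35.2 to 107 CPM with TNF (1.61 ± 0.17, adjusted p = 5.61e-08) and to 173 CPM with TNF + IFN (2.30 ± 0.18, adjusted p = 1.78e-11). Its rises under si-dnmt were 1.49 ± 0.17 and 2.21 ± 0.18 (adjusted p = 3.12e-07 and 4.44e-11). With IFN, Kalrn, an exchange factor downstream of EphB receptors, and Srgap1, an effector of Robos, fell under both siRNAs (−1.63 ± 0.16, adjusted p = 1.04e-08, and −1.07 ± 0.13, adjusted p = 3.68e-07, under si-control). Rgmb rose under both (1.30 ± 0.11, adjusted p = 2.41e-10, and 0.99 ± 0.11, adjusted p = 6.07e-08). The netrin Ntn1 thus rose with TNF while its receptor Neo1 fell in the same libraries.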

How the data were processed

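The authors deposited raw gene counts for 32 libraries (4 in each of 8 groups), and their processing notes name cutadapt 4.9, FastQC 0.12.1, MultiQC 1.27.1, featureCounts and DESeq2. The aligner, genome build and strand setting were not given in the sources used here. The tables were joined by gene identifier, and all 32 libraries entered one edgeR 4.0.16 quasi-likelihood fit in R 4.3.3, with a mean per group, TMM factors (0.880 to 1.09) and filterByExpr at a minimum count of 10, which kept 15254 genes. Adjusted p-values are Benjamini-Hochberg values over all of them, with the contrasts tested in edgeR (limma 3.58.1 was loaded beside it) and DESeq2 1.42.0 as an alternative. The script was tested on simulated data. The groups were described as biological replicates.

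The 66 members and the partner and marker lists were chosen with earlier results of these data known. Every silent member was named, then the called members of each comparison (up to 8 higher and 8 lower by size, after which the remaining calls were added so that every member is accounted for), and always the members with a known part in vessels. Of the partners, the text names up to 4 per comparison by size among the called.

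The replicate numbers come from the sample titles. Deviations from the group mean correlated between libraries with the same number at 0.297 to 0.617 (median 0.415) over 112 pairs, between libraries with a different number of the same set (1 and 2, or 3 and 4) at 0.209 to 0.564 (median 0.409) and between the sets at −0.590 to −0.239 (median −0.410). Libraries thus deviated together by set, about as much with a different number as with the same one. The fit was repeated with the number as a block, which also takes up the difference between the sets. Exon lengths and overlaps came from GENCODE M21 by gene identifier. Exon bases of 17 members, among them Ephb4, Nrp1, Plxna1, Plxna4 and Plxnb1, overlap another annotated gene, so their reads may be shared. Columns with values of other samples numbered 0.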

Additional observations from a re-analysis of the deposited data

Results flagged for a closer look

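In 15 of 352 groups of 4 libraries (4.26%), 1 library lay far from the other 3 by Dixon's criterion. For independent, normally distributed values the criterion flags about 1 in 20 groups. Values split by replicate set are not of that kind, so the 2 rates cannot be set against each other. The values are in CPM. Epha1 stood at 2.49 in si-control replicate 1 (others 1.08 to 1.27) and at 0.687 in si-dnmt + TNF replicate 1 (others 0.0923 to 0.188). Robo3 stood at 4.88 in si-control replicate 1 and at 4.36 in si-dnmt replicate 2. Efnb1 stood at 3.59 in si-control + IFN replicate 2 and at 3.12 in si-dnmt replicate 1, the latter below the others. Plxnb1 stood at 0.0616 in si-control + TNF + IFN replicate 3, below the others, and Sema5a at 0.741 in replicate 4 of that group (others 0.123 to 0.208). In si-dnmt + TNF, Sema3d stood at 0.463 in replicate 4 and Sema6a at 2.70 in replicate 1. In si-dnmt + IFN, Efna4 stood at 2.02 in replicate 4 and Epha2 at 129, below the others (151 to 153), in replicate 2. In si-dnmt + TNF + IFN replicate 2, Ephb6 stood at 1.44, Ntn1 at 88.5 and Sema3g at 0.60, each above the others.

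The change with TNF + IFN differed between the siRNAs for Robo1 (interaction −2.63, adjusted p = 0.0257, edgeR) and for Ntn1 (−1.13, adjusted p = 0.0366), and neither call held without each library in turn.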

How the results depend on the processing

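With the replicate block, the members called numbered 23 (7 without it) for the siRNA without cytokine, 21 (8) with IFN and 24 (12) with TNF + IFN. For the cytokines they numbered 32 (18) with TNF and 22 (9) with IFN under si-control, 32 (21) and 21 (7) under si-dnmt, and for the interactions 2 (0) with TNF and 8 (2) with TNF + IFN. The block lost none of the 163 calls. Replicates 1 and 2 alone gave 18, 26 and 18 for the siRNA without cytokine, with TNF and with IFN, 17 and 18 for IFN under si-control and si-dnmt, and 4 and 1 for the interactions with TNF and IFN. Replicates 3 and 4 alone gave 20, 20 and 21 for the siRNA without cytokine, with IFN and with TNF + IFN, 34 for TNF and 21 for IFN under si-control, 12 for IFN under si-dnmt, and 8, 2 and 12 for the 3 interactions. In replicates 3 and 4 alone, Sema3d with TNF was reversed between the siRNAs (0.41). With no filter on low counts, the siRNA called 5 members with IFN and 5 with TNF + IFN, and DESeq2 called 1 and 4 in the interactions with TNF and TNF + IFN. The cause of these moves was not tested. Shares of all genes called are given above only for the fit without the block, and with the block where that moved the count. They are not given for the other fits here or for those without 1 library. The counts of those fits thus cannot be set against all genes.

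The fits that left out 1 library had no block, so each unbalanced the replicate sets of 1 group. Leaving out 1 library at a time gave 7 to 9, 9 to 14, 4 to 9 and 4 to 11 calls for the siRNA without cytokine, with TNF, IFN and TNF + IFN. For TNF, IFN and TNF + IFN it gave 14 to 20, 8 to 10 and 30 to 34 under si-control and 16 to 20, 5 to 9 and 25 to 28 under si-dnmt, with 0 to 2 for the interaction with TNF + IFN. Silent members numbered 5 to 6 that way, 0 at 0 counts in every library, 13 at up to 10 counts, 21 with no group mean of 1 CPM and 16 by the low-count filter. Of the 163 calls, 59 fell short of the threshold in some fit without 1 library, 26 with no filter, 26 in replicates 1 and 2 alone, 19 in replicates 3 and 4 alone, 1 with RLE factors and 0 with DESeq2.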
